A study of Mus musculus with 6 samples.

Results

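The integrated stress response and the unfolded protein response were followed through 10 genes, chosen by name: the transcription factor genes Atf4, Ddit3 (which encodes CHOP) and Xbp1, and the target genes Trib3, Asns, Chac1, Sesn2, Ppp1r15a, Herpud1 and Creld2. All 10 were present among the 40879 gene symbols of the count table. The libraries came from CD8 T cells infiltrating MC38-hPD-L1 tumours, grown for 12 days in C57BL/6N mice. MC38 is a mouse colon carcinoma line. A photocatalyst had tagged cells with biotin by proximity, and flow cytometry gave 3 libraries of tagged cells (Biotin+, which the submitters call tumour-neighbouring) and 3 of untagged cells (Biotin-, called tumour-distal). Genotype beyond the strain, age, and the number of animals behind a library are not stated in the labels, and no other treatment is named for either group.

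In the integrated stress response, several kinases phosphorylate the translation factor eIF2, which lowers protein synthesis at large and favours translation of the ATF4 mRNA. ATF4 and its partner CHOP then switch on genes of amino acid supply, tRNA charging and feedback. The unfolded protein response senses misfolded protein in the endoplasmic reticulum (ER) through PERK (encoded by Eif2ak3), IRE1 (Ern1) and ATF6, where IRE1 splices the Xbp1 mRNA so that it encodes an active factor. In T cells of tumours both responses have been linked to nutrient shortage and to impaired function. Gene counts measure mRNA amount and carry no information on ATF4 translation, on the spliced share of Xbp1 or on eIF2 phosphorylation.

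The start regions of the 10 genes were searched for response elements of these factors, and the stretches that held one are shown because the library pattern described further on can be set beside them. Sequences are RefSeq's, build GRCm38.p6, 250 bases before to 50 bases after the start, with 1 region for each of the 10 genes. A stretch just after the start lies in a GENCODE M21 transcript of each gene except Trib3 and Xbp1. For those genes that annotation did not bear out the start, so the position of the Trib3 match rests on RefSeq alone. Position -1 is the base before the start, and sequences run 5′ to 3′ on the gene's strand with the matched letters in capitals. The C/EBP-ATF response element, bound by ATF4 with C/EBP partners, was searched as TGATGNAA on both strands.

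Chac1, chr2:119351029-119351076, plus strand, match at -193 to -186 on the opposite strand: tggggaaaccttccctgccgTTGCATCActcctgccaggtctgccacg
Asns, chr6:7693210-7693252, minus strand, match at -23 to -16: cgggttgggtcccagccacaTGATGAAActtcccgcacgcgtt
Trib3, chr2:152344028-152344057, minus strand, match at 15 to 22 after the start on the opposite strand: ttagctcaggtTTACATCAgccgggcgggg
Herpud1, chr8:94386297-94386407, plus strand, matches at -112 to -105 (C/EBP-ATF, opposite strand) and -52 to -42 (ER stress response element II): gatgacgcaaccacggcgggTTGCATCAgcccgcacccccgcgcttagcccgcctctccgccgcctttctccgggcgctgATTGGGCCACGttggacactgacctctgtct
Creld2, chr15:88819500-88819558, plus strand, match at -126 to -108 (ER stress response element, opposite strand): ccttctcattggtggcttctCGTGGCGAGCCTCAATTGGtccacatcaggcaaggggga
Ppp1r15a, chr7:45526269-45526300, minus strand, match at -12 to -5 (cyclic AMP response element): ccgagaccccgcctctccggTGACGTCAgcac

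The C/EBP-ATF element was thus found in 4 of the 10 regions, against 3.97% of 32851 regions in the table. The ER stress response element (CCAAT, any 9 bases, CCACG) is held by 0.119% of them and element II (ATTGG, any 1 base, CCACG) by 0.0365%. Both are sites of ATF6 and XBP1. The palindromic cyclic AMP response element TGACGTCA, shared by ATF and CREB factors, is held by 1.79%. The unfolded protein response element TGACGTGG, held by 0.676%, was in none of the 10 regions. The regions of Atf4, Ddit3, Xbp1 and Sesn2 held no match, which says only that these letters are not in these windows.

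Total counts were 16423106 to 19640693 per library. All 15 CD8 T cell markers passed the filter on low counts, and their summed level was 8635 to 11362 counts per 1000000 (CPM, with library sizes scaled by TMM) in Biotin+ and 4551 to 6645 CPM in Biotin-. The 10 fibroblast markers summed to 89.9 to 210.8 CPM in Biotin+ and 717 to 1040 CPM in Biotin-. All 9 that were tested had a lower level in Biotin+. Of these, 6 had an edgeR adjusted p below 0.05, where 6.72% of all genes were lower. CD4 T cell markers summed to 1.33 to 8.90 CPM. The 8 macrophage markers ranged from 279 to 773 CPM in Biotin+ and from 615 to 2259 CPM in Biotin-. Dendritic cell markers summed to 457 to 1095 CPM in Biotin+ and to 437 to 1188 CPM in Biotin-. Epithelial and tumour markers summed to 23.4 to 135.6 CPM in Biotin+, highest in replicate 1, and to 14.2 to 56.8 CPM in Biotin-. The 11 B and plasma cell markers summed to 81.1 to 94.6 CPM in Biotin+ and to 105 to 148 CPM in Biotin-, and the B cell markers Ms4a1, Cd79a and Pax5 and the plasma cell receptor Tnfrsf17 were below 1 CPM in every library. No label says that same-numbered libraries share an animal or a batch. Libraries were paired by replicate number because same-numbered ones deviated together from their group means. Fits that include the number as a block are quoted where a call changes among the 10 genes or the related lists.

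The comparison asks whether CD8 T cells next to the tumour differ from distal ones in these stress responses. None of the 10 mRNAs passed in either direction. In edgeR's quasi-likelihood test 0 of 10 had an adjusted p below 0.05, against 8.26% of the 13360 genes tested (1.53% higher and 6.72% lower in Biotin+), and 1 (Ppp1r15a) had an unadjusted p below 0.05, against 22.6%. A p above the threshold does not show that the levels were equal. DESeq2 and limma-voom also called 0. With the replicate block 2 of 10 were lower, Chac1 and Ppp1r15a, where 17.6% of all genes were called (5.60% higher, 12.0% lower). The median log2 fold change of the 10, Biotin+ over Biotin-, was -0.15, beside 0.06 for all genes tested, with 3 values above 0 and 7 below. Complete separation of the libraries by group was seen in 2 of 10, Xbp1 and Ppp1r15a, against 29.2% of all genes.

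**Figure D1:**
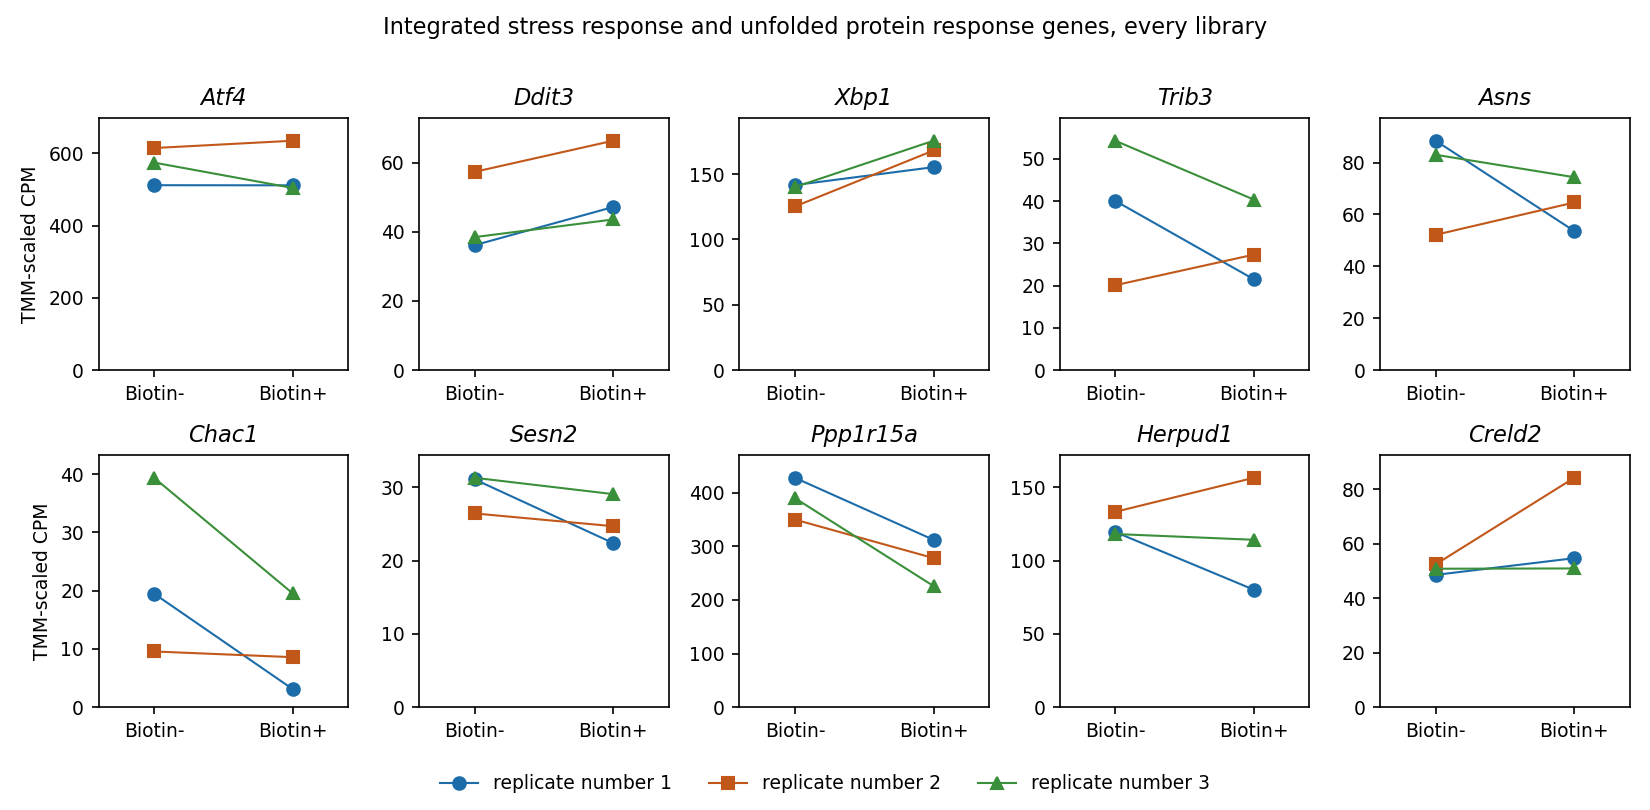
Level of each of the 10 genes in every library (y axis, TMM-scaled CPM from 0; x axis, group; lines join libraries with the same replicate number, 1 point per library). Ppp1r15a is lower and Xbp1 higher in all 3 Biotin+ libraries than in any Biotin- library, whereas the other 8 genes overlap between the groups.

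None of the 3 transcription factor genes passed in edgeR with TMM scaling. Atf4 was at 511, 635 and 504 CPM in Biotin+ replicates 1 to 3 and at 512, 615 and 574 CPM in Biotin- replicates 1 to 3. The groups overlapped, and both libraries numbered 2 were the highest of their group. Its log2 fold change was -0.04 ± 0.20 (SE, n = 3 per group, edgeR adjusted p = 0.927). Per kilobase of exon it was the most abundant of the 10, at 237 CPM per kb over all libraries, against 112.6 for Ppp1r15a next in order and 7.91 for Sesn2 at the end.

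Ddit3 encodes CHOP, a C/EBP family factor induced by ATF4 that favours cell death under lasting stress. It stood at 47.1, 66.3 and 43.5 CPM in Biotin+ and at 36.1, 57.3 and 38.4 CPM in Biotin-. Biotin+ was higher within each pair, but by less than the libraries of a group differed among themselves (log2 fold change 0.25 ± 0.25 SE, n = 3 per group, edgeR adjusted p = 0.604). Exons of Mars1, at 75.2 to 111.1 CPM, overlap those of Ddit3 on the opposite strand in GENCODE M21, and without a stated strand setting reads of the overlap cannot be assigned to either gene.

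Xbp1 was at 155, 168 and 176 CPM in Biotin+ and at 142, 125 and 140 CPM in Biotin-. Every Biotin+ library exceeded every Biotin- library, by 1.23-fold on average (log2 fold change 0.29 ± 0.18 SE, n = 3 per group). The difference did not pass (edgeR adjusted p = 0.367). The B and plasma cell markers summed to 81.1 to 94.6 CPM in Biotin+ and 105 to 148 CPM in Biotin-, and their part in the Xbp1 difference was not tested. Ddit3, Xbp1 and Creld2 were the 3 of 10 genes with a higher level in Biotin+ in each same-numbered pair, a pattern seen in 26.8% of all genes.

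Among the feedback genes, Ppp1r15a had the smallest p. It encodes GADD34, the phosphatase subunit that removes the phosphate from eIF2 and so ends the response. It measured 312, 278 and 226 CPM in Biotin+ and 428, 350 and 390 CPM in Biotin-. All 3 Biotin- libraries were above all 3 Biotin+ libraries, by 1.43-fold on average (log2 fold change -0.52 ± 0.20 SE, n = 3 per group, edgeR adjusted p = 0.161). It passed with the replicate block, at -0.52 ± 0.17 (SE, edgeR adjusted p = 0.0484). Ppp1r15a is also an early response gene, and in the same libraries 4 of 16 early response and dissociation genes were lower in Biotin+ (Egr1, Fosb, Ier3 and Jun) and 0 were higher, where 6.72% of all genes were lower and 1.53% higher, at a median log2 fold change of -0.17. With the replicate block 6 of the 16 were lower and 1 higher, against 12.0% and 5.60% of all genes. Fibroblast markers were lower too (89.9 to 210.8 against 717 to 1040 CPM summed), and the part of either in this difference was not tested. In bulk libraries a smaller share of cells of a type and less RNA per cell cannot be told apart.

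Trib3 encodes a pseudokinase that ATF4 and CHOP induce and that restrains ATF4 and AKT in turn. Its levels were 21.5, 27.3 and 40.3 CPM in Biotin+ and 40.04, 20.1 and 54.3 CPM in Biotin-. The groups overlapped widely, and the 2.704-fold span between the highest and lowest library came from Biotin- alone (log2 fold change -0.36 ± 0.35 SE, n = 3 per group, edgeR adjusted p = 0.599). Sesn2, a sestrin that senses leucine and restrains the growth kinase mTORC1, ran from 22.4 to 29.1 CPM in Biotin+ and from 26.4 to 31.3 CPM in Biotin- (log2 fold change -0.22 ± 0.21 SE, n = 3 per group, edgeR adjusted p = 0.584).

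Chac1 was the most variable of the 10. It encodes an enzyme that degrades glutathione and is among the most inducible ATF4 targets. Its levels were 3.07, 8.56 and 19.5 CPM in Biotin+ replicates 1, 2 and 3 and 19.5, 9.54 and 39.4 CPM in Biotin- replicates 1, 2 and 3, a span of 12.8-fold. Biotin+ replicate 3 equalled Biotin- replicate 1 to 3 digits, so the groups overlapped although each Biotin+ library lay below its same-numbered partner. The log2 differences within pairs were -2.66, -0.16 and -1.01 for numbers 1, 2 and 3. Without the block the log2 fold change was -1.14 ± 0.63 (SE, n = 3 per group, edgeR adjusted p = 0.329), and with it -1.24 ± 0.36 (SE, edgeR adjusted p = 0.0248). Without Biotin- replicate 3 the unblocked value was -0.49 and without Biotin+ replicate 3 it was -1.97. Chac1, Sesn2 and Ppp1r15a were lower in Biotin+ in each pair, as were 24.0% of all genes.

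Asns, which makes asparagine from aspartate, measured 53.6, 64.6 and 74.4 CPM in Biotin+ and 88.4, 52.2 and 83.0 CPM in Biotin-. Biotin- replicate 2 was the lowest of all 6 libraries and Biotin- replicate 1 the highest, so that both extremes came from the same group (log2 fold change -0.22 ± 0.24 SE, n = 3 per group, edgeR adjusted p = 0.647).

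The targets in the ER branch, Herpud1 and Creld2, did not pass. Herpud1 is an ER membrane protein that organises the removal of misfolded proteins, and Creld2 is an ER-resident protein that aids disulfide folding. Herpud1 was at 80.1, 157 and 114 CPM in Biotin+ and at 120, 133 and 118 CPM in Biotin-. Creld2 was at 54.6, 84.1 and 50.9 CPM in Biotin+ and at 48.5, 52.4 and 50.8 CPM in Biotin-. In both genes Biotin+ replicate 2 was the highest library. Their differences were within the spread (Herpud1 log2 fold change -0.08 ± 0.24 SE, edgeR adjusted p = 0.885, and Creld2 0.32 ± 0.23 SE, edgeR adjusted p = 0.441). Without Biotin+ replicate 2 the Creld2 value was 0.03 and that of Herpud1 -0.38, and without Biotin+ replicate 1 the Herpud1 value was 0.13. Biotin+ replicate 2 also had the lowest TMM factor of the 6 libraries, 0.815.

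**Figure D2:**
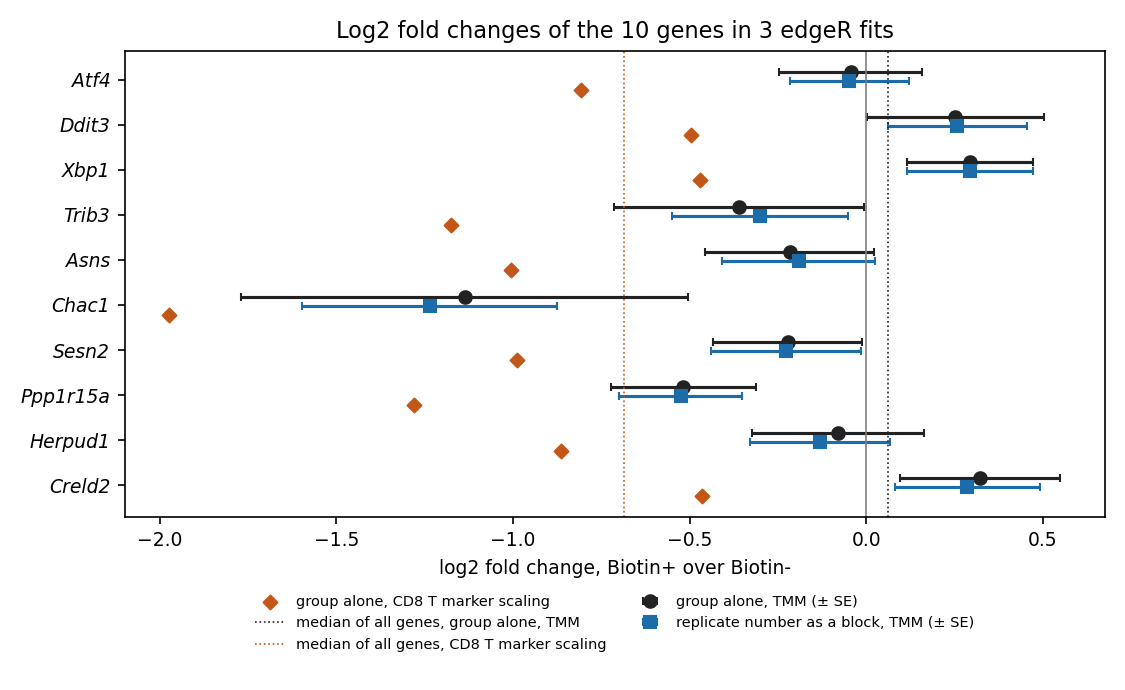
Log2 fold change of the 10 genes, Biotin+ over Biotin- (x axis), in 3 edgeR fits: group alone (circles, bars are SE), replicate number as a block (squares, bars are SE) and libraries scaled to 15 CD8 T markers (diamonds); dotted lines are the medians of all genes tested. The block narrows the bar of Chac1 from 0.63 to 0.36, and the marker scaling moves all 10 genes and the median of all genes to the left.

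The direction of several genes rested on the scaling. Because CD8 T markers had higher CPM in Biotin+, a scaling that sets these markers equal between libraries shifted the all-gene median by -0.75 on the log2 scale, to -0.69. The median of the 10 genes then stood at -0.93, and 5 of 10 were lower (Atf4, Asns, Sesn2, Ppp1r15a and Herpud1), against 26.7% of all genes called (0.180% higher, 26.5% lower). Relative to CD8 T marker transcripts, all 10 genes including Ddit3 (-0.50), Xbp1 (-0.47) and Creld2 (-0.47) were thus below 0. Those 3 were above the median of all genes under both scalings.

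In 4 of the 10 genes the order of the libraries crossed the groups. Trib3, Asns, Chac1 and Sesn2 all had their 3 highest levels in Biotin+ replicate 3, Biotin- replicate 1 and Biotin- replicate 3, and their 3 lowest in the other libraries. Of all 13360 genes tested, 4.21% had these 3 libraries on top. The set of libraries was chosen after the values of the 10 genes were seen, so the count of 4 among 10 is a description. Atf4 itself did not follow it: its highest libraries were Biotin+ replicate 2 and Biotin- replicate 2, as they were for Ddit3 and Herpud1.

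Of 12 cytosolic tRNA synthetases that belong to the ATF4 programme, 5 had the same 3 libraries on top: Aars, Cars, Nars, Wars1 and Yars, for alanine, cysteine, asparagine, tryptophan and tyrosine. Of 8 synthetases outside that programme, 0 did. Among 20 genes of amino acid synthesis and transport 4 did, namely Aldh18a1, Gpt2, Slc6a9 and Slc1a4, while among 28 ER chaperone and degradation genes 1 did (Wfs1), among 19 upstream genes 1 (Impact), and among 13 other ATF4 and CHOP targets 0. Phgdh, which opens serine synthesis, was highest in Biotin+ replicate 2 (493 CPM) and did not show the order (named after its values were seen). Aars, the alanyl-tRNA synthetase, was at 216, 248 and 336 CPM in Biotin+ and 356, 256 and 413 CPM in Biotin-. With library size alone (8.54% of all genes) the counts were 5 of the 10 genes, 8 of 12 ATF4-programme and 1 of 8 other synthetases, 6 of 20 amino acid genes, 5 of 28 ER genes, 3 of 19 upstream genes and 1 of 13 other targets. With marker scaling (9.46%) they were 4 of 10, 5 of 12, 0 of 8, 8 of 20, 2 of 28, 0 of 19 and 1 of 13, in the same sequence. Trib3, Asns and Chac1 kept the pattern in all 3 scalings, and Sesn2 lost it with marker scaling.

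**Figure D3:**
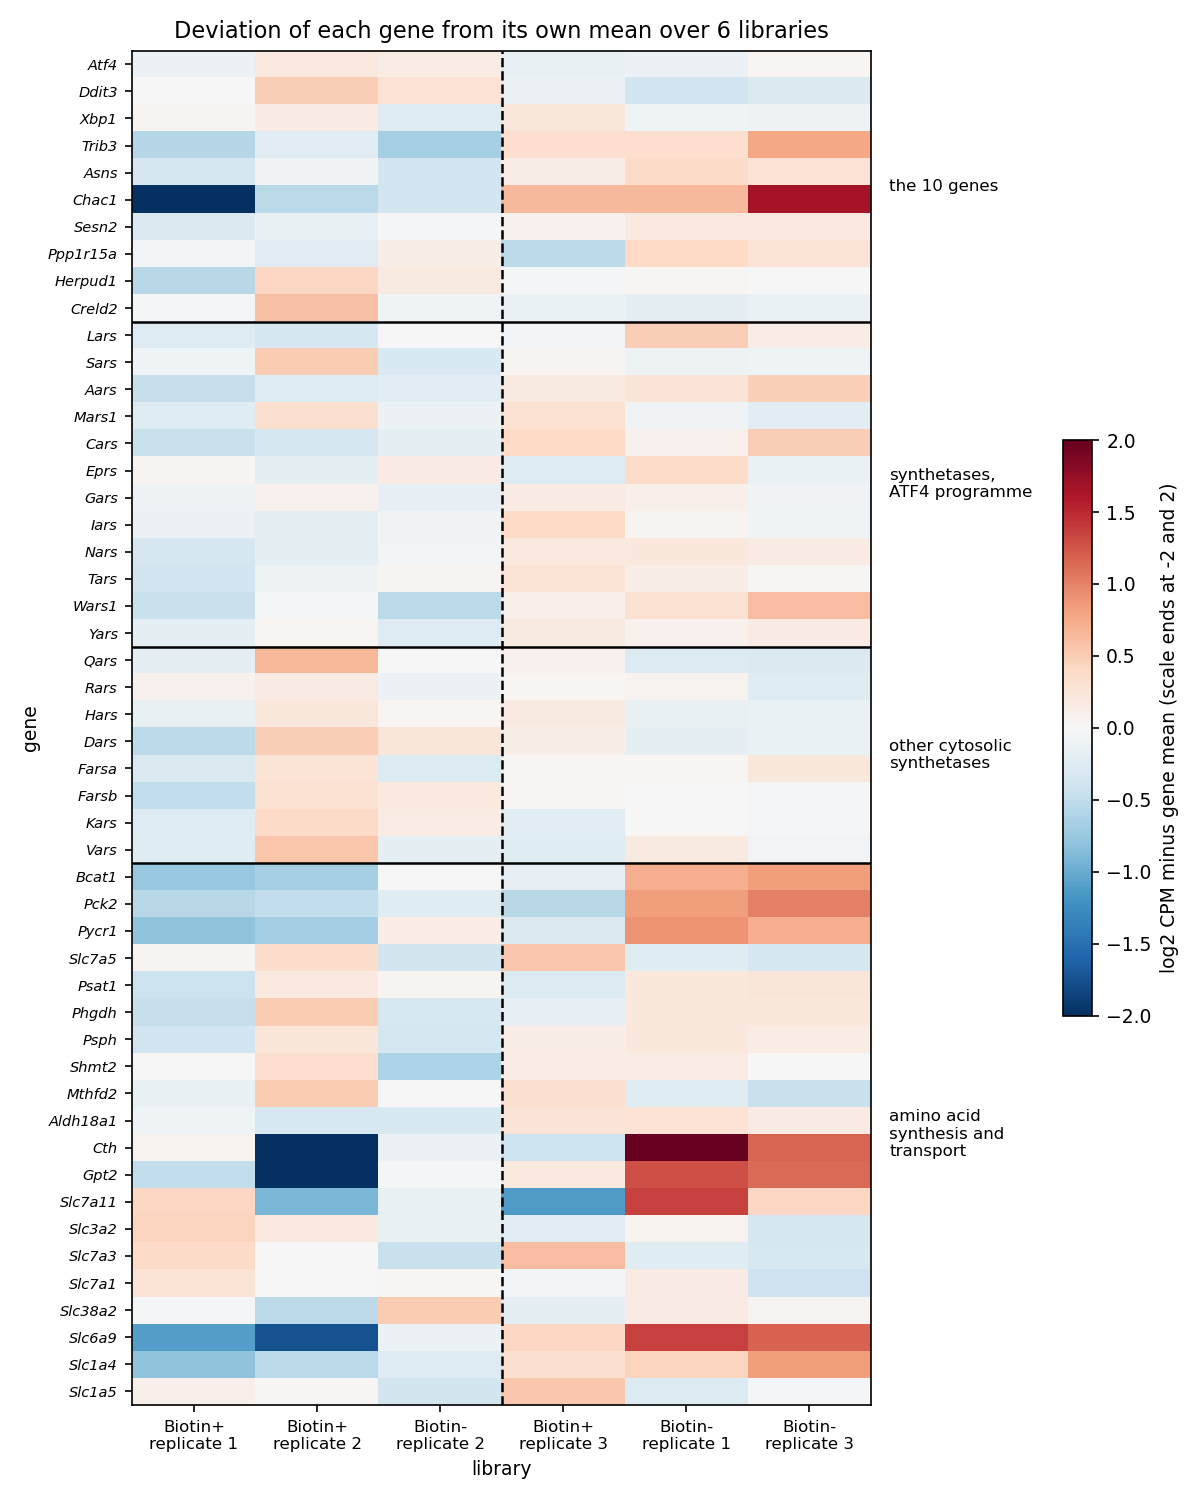
Deviation of log2 CPM from each gene's mean over the 6 libraries (colour, red above and blue below the mean; rows are genes by list, columns are libraries, with the dashed line before Biotin+ replicate 3, Biotin- replicate 1 and Biotin- replicate 3). Trib3, Asns, Chac1 and Sesn2 are above their means to the right of the line, whereas Ddit3 is below its mean there.

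Within each group the fibroblast markers shared only part of the order of Trib3, Asns, Chac1 and Sesn2. The marker sums were 106, 89.9 and 210.8 CPM in Biotin+ replicates 1 to 3. In Biotin- replicates 1 to 3 they were 1040, 717 and 842 CPM. For markers and genes alike, replicate 3 was highest in Biotin+ and replicate 2 lowest in Biotin-. The lowest of Biotin+ was replicate 2 for the markers but replicate 1 for the genes. In Biotin-, replicate 1 was highest for the markers and Asns, and replicate 3 for Trib3, Chac1 and Sesn2. The macrophage markers took the fibroblast markers' order in Biotin- (2259, 615 and 831 CPM in replicates 1 to 3). In Biotin+ they did not (751, 773 and 279 CPM in replicates 1 to 3). Biotin+ replicate 3 and Biotin- replicate 1, set side by side after their values were seen, had fibroblast marker sums of 210.8 and 1040 CPM. In these libraries Trib3 was at 40.3 and 40.04 CPM, Chac1 at 19.5 and 19.5, Sesn2 at 29.1 and 31.1 and Asns at 74.4 and 88.4. Biotin- replicate 3, with a fibroblast marker sum of 842 CPM, had Trib3 at 54.3, Chac1 at 39.4, Sesn2 at 31.3 and Asns at 83.0 CPM. The part of fibroblasts or macrophages in the pattern was not tested.

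The response elements can be set beside this pattern. Of the 4 genes with the pattern, Trib3, Asns and Chac1 hold the C/EBP-ATF element printed above and Sesn2 does not, while Herpud1 holds it and did not show the pattern. Among genes with a region in the RefSeq table, 5 of 8 ATF4-programme synthetases hold the element (Aars, Gars, Iars, Tars and Yars), and of these Aars and Yars showed the pattern. Other ATF4 and CHOP targets hold it in 5 of 13 genes (Atf3, Nupr1, Vldlr, Fgf21 and Jdp2) and none of that list's tested genes showed the pattern. Amino acid genes hold it in 4 of 16 (Pycr1, Pck2, Slc7a11 and Slc1a4), where only Slc1a4 showed the pattern. It was in 1 of 16 upstream genes, 0 of 5 other synthetases and 0 of 24 ER chaperone and degradation genes. These list counts are of genes, which can have more than 1 region, whereas the 3.97% given above is a share of regions. A match of letters does not show binding.

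**Figure D4:**
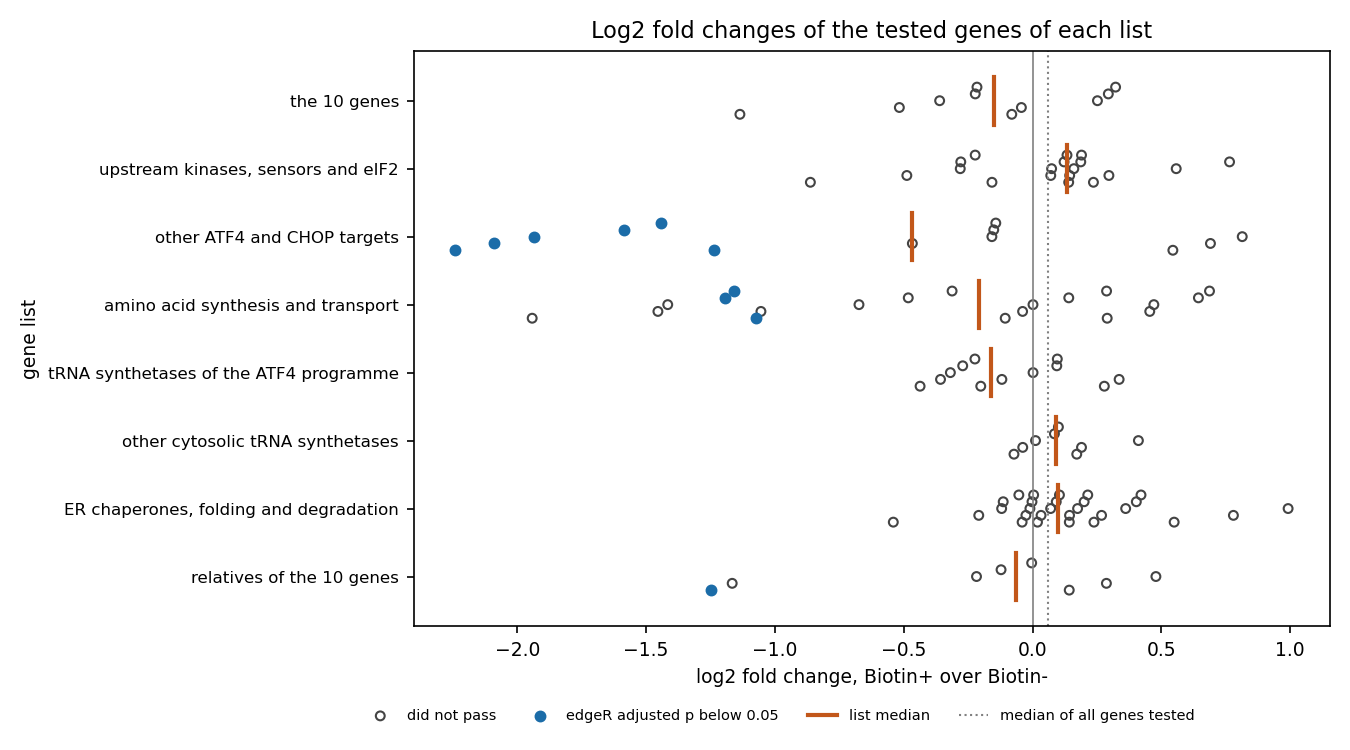
Log2 fold change, Biotin+ over Biotin- (x axis), of every tested gene of the 10-gene set and of 7 related lists (rows); filled points have an edgeR adjusted p below 0.05, the vertical bar is the list median, and the dotted line is the median of all genes tested (0.06). Called genes are all to the left of 0 and lie in 3 of the 7 related lists.

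Upstream of the 10 genes, kinases, sensors and eIF2 subunits did not pass: 0 of 19 in edgeR, with 2 at an unadjusted p below 0.05 and 0 by DESeq2 or limma-voom (median log2 fold change 0.13, and -0.64 with marker scaling). Ern1, which encodes IRE1, had ranges that did not overlap, at 62.6 to 105 CPM in Biotin+ and 41.2 to 58.5 CPM in Biotin- (log2 fold change 0.56 ± 0.25 SE, n = 3 per group, edgeR adjusted p = 0.221). Eif2ak3, the gene of PERK, was at 253, 72.6 and 164 CPM in Biotin+ and 115, 94.9 and 78.5 CPM in Biotin-, so Biotin+ replicate 2 lay below every Biotin- library (0.76 ± 0.37 SE, edgeR adjusted p = 0.255). Eif2ak4, which encodes the amino acid sensor GCN2, had a value of -0.49 ± 0.28 (SE, edgeR adjusted p = 0.345). Mbtps2, the protease that releases ATF6, had a value of -0.86 ± 0.30 (SE, edgeR adjusted p = 0.110) and was lower with the replicate block (edgeR adjusted p = 0.0401).

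Several other ATF4 and CHOP targets were lower next to the tumour. Of 13 tested, 6 were lower in Biotin+ and 0 higher (median log2 fold change -0.47), against 6.72% of all genes lower. Nupr1, a stress-induced chromatin protein, was at 7.12, 6.13 and 9.63 CPM in Biotin+ and 29.6, 22.98 and 45.0 CPM in Biotin- (log2 fold change -2.09 ± 0.31 SE, n = 3 per group, edgeR adjusted p = 0.00657). Gdf15, a secreted stress cytokine, fell by 1.94 ± 0.39 (SE) on the log2 scale, Atf5, a factor related to ATF4, by 1.44 ± 0.33 (SE) and Atf3, an early factor that represses stress genes, by 1.24 ± 0.20 (SE), with edgeR adjusted p values of 0.0161, 0.0255 and 0.00792. The other 2 were Vldlr, a lipoprotein receptor (-2.24 ± 0.58 SE, edgeR adjusted p = 0.0408), and Tnfrsf10b, a death receptor induced by CHOP (-1.59 ± 0.40 SE, edgeR adjusted p = 0.0373), named after their values were seen. Ddit4, an mTORC1 inhibitor, was at 157, 398 and 224 CPM in Biotin+ and 122, 214 and 107 CPM in Biotin-. It was called higher with the replicate block (log2 fold change 0.78 ± 0.19 SE, edgeR adjusted p = 0.00867, against 0.207 without it). With marker scaling its value was 0.056. It was named after its values were seen. Nupr1 passed without each library and each same-numbered pair in turn. Atf3 lost its call without the pair numbered 1, Gdf15 when that pair, Biotin+ replicate 2 or Biotin- replicate 3 was left out, and Atf5 without Biotin+ replicate 1 or 2, Biotin- replicate 1 or 3, or the pairs numbered 1 or 2. The count of lower genes ran from 1 to 5 without a library or pair. Fibroblast markers were lower in the same libraries (89.9 to 210.8 against 717 to 1040 CPM summed) and their part was not tested.

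Of 20 amino acid synthesis and transport genes 3 were lower and 0 higher (median log2 fold change -0.21), against 6.72% and 1.53% of all genes. They were Bcat1, a branched-chain aminotransferase (-1.07 ± 0.27 SE, edgeR adjusted p = 0.0354), Pck2, the mitochondrial PEP carboxykinase (-1.16 ± 0.29 SE, edgeR adjusted p = 0.0373), and Pycr1, of proline synthesis (-1.20 ± 0.32 SE, edgeR adjusted p = 0.0459). Each lost its call in 7 of the 9 fits without a library or pair: Bcat1 and Pycr1 kept it only without Biotin+ replicate 3 or Biotin- replicate 2, and Pck2 only without Biotin- replicate 2 or the pair numbered 2. The count ran from 0 to 4 in those fits and was 7 with the replicate block (12.0% of all genes lower), 6 by DESeq2 and 1 by limma-voom. Slc7a5, the large neutral amino acid transporter of activated T cells, moved the other way: it was at 542, 659 and 756 CPM in Biotin+ and 439, 402 and 411 CPM in Biotin- (0.64 ± 0.21 SE, edgeR adjusted p = 0.0866), and it was higher with the replicate block (edgeR adjusted p = 0.0203) and by DESeq2 (adjusted p = 0.0228), but had a value of -0.12 with marker scaling.

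No synthetase passed. In edgeR 0 of 12 in the ATF4 programme and 0 of 8 others passed, with 0 at an unadjusted p below 0.05 in either list and 0 by DESeq2 or limma-voom. Their median log2 fold changes were -0.16 and 0.09 (-0.92 and -0.70 with marker scaling). Lars, the leucyl synthetase, came closest, where Biotin+ averaged 65.6 ± 6.58 (SD) and Biotin- 88.8 ± 16.03 (SD) CPM over 3 libraries each (edgeR adjusted p = 0.229).

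Genes of ER chaperones, folding and degradation were centred on a log2 fold change of 0.10 (-0.66 with marker scaling), with 0 of 28 called in edgeR, 2 at an unadjusted p below 0.05, 1 higher by DESeq2, 0 by limma-voom and 2 higher with the replicate block. Sdf2l1, an ER chaperone cofactor, was at 58.0, 113 and 58.9 CPM in Biotin+ and 35.2, 43.3 and 37.2 CPM in Biotin-. All Biotin+ libraries were above all Biotin- libraries (log2 fold change 0.99 ± 0.28 SE, n = 3 per group, edgeR adjusted p = 0.0526), and the edgeR adjusted p was 0.00542 with the replicate block. Without Biotin+ replicate 2 the value was 0.57, and with marker scaling it was 0.20 (edgeR adjusted p = 0.517). Dnajb11, a cochaperone of BiP, followed with 148 ± 19.2 against 100.8 ± 12.8 CPM (SD, n = 3, edgeR adjusted p = 0.118, and 0.0496 with the replicate block). Like Creld2 and Herpud1, Sdf2l1 was highest in Biotin+ replicate 2. Under marker scaling 12 of the 28 were lower and 0 higher, against 26.5% and 0.180% of all genes.

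Relatives of the 10 genes gave a single call, with 1 of 8 lower in Biotin+, where 6.72% of all genes were lower. Trib1, a tribbles pseudokinase like Trib3, was at 28.6, 17.6 and 25.4 CPM in Biotin+ and 54.3, 40.1 and 75.9 CPM in Biotin- (log2 fold change -1.25 ± 0.28 SE, n = 3 per group, edgeR adjusted p = 0.0239). It lost the call in 4 of the 9 fits, those that left out Biotin+ replicate 2, Biotin- replicate 1, Biotin- replicate 3 or the pair numbered 3. Trib2 had a value of -0.12 ± 0.28 (SE), the sestrins Sesn1 and Sesn3 of 0.14 ± 0.45 and -0.22 ± 0.26 (SE), and Ppp1r15b, the constitutive partner of Ppp1r15a, of -0.0034 ± 0.24 (SE). Chac2, which degrades glutathione more slowly than Chac1, had a value of -1.17 ± 0.59 (SE) at only 1.08 ± 0.425 and 2.43 ± 0.901 CPM (SD, n = 3). Herpud2 stood at 0.29 ± 0.18 (SE) and Creld1 at 0.48 ± 0.39 (SE). Whether any relative differed from its counterpart among the 10 was not tested.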

How the data were processed

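The authors deposited whole-number raw counts for 40879 gene symbols in 6 libraries (per the labels). Per the submitters' processing notes, the build was GRCm39 and the tools included STAR 2.7.10a, featureCounts 2.0.1, Trim Galore 0.6.7 and Picard 1.14. Annotation and strand setting: not given in the sources used here. The 10 genes and all lists were chosen with earlier results of these data known. Groups were compared by the quasi-likelihood test of edgeR 4.0.16 in R 4.3.3, with group as the only term, TMM scaling, filterByExpr and robust dispersions, over 13360 genes, after a check on simulated data, with Benjamini-Hochberg adjustment over all of them and a threshold of 0.05. In the check on simulated data most 2-fold changes were not called, so changes of that size can be missed here. SE is the log2 fold change over the root of F. Totals were 16423106 to 19640693 counts; no molecular identifiers are named, so reads may repeat a molecule.

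Same-numbered libraries deviated together from their group means (correlations 0.343, 0.254 and 0.375 over genes; -0.262 to -0.0618 for other pairs), and this is where the pairing by number comes from. Nothing in the labels says that replicates are separate animals, so p-values measure the spread between these samples. Libraries within a group differed beyond sampling noise (chi-square over its degrees of freedom, 35.6 to 102.7), and none was merged. Named genes are the 10, the 4 smallest p of each related list and all relatives. Alternatives were other scalings and filters, DESeq2 1.42.0, limma-voom (limma 3.58.1), the replicate block, and leaving out libraries or pairs. Of the list genes, 16 were found under an older symbol; Fgf21 was too low to test. Exon length and 75-base windows came from GENCODE M21 (GRCm38); 0 windows of the 10 genes matched another gene's transcript.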

Additional observations from a re-analysis of the deposited data

How the results depend on the processing

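Over all genes, 205 were higher and 898 lower in Biotin+ in edgeR. The higher count was 84 with library size alone, 24 with CD8 T marker scaling, 396 with no filter on low counts, 471 with DESeq2 and 748 with the replicate block, and the lower count was 3547, 1495, 1389 and 1599 in the last 4 of these. Without a library or pair it was 23 to 200 higher and 239 to 1044 lower. Of the 10 genes, 5 were lower with marker scaling and 2 with the replicate block, and 0 were higher or lower in any fit without a library or pair.

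With marker scaling the lower counts were 5 upstream genes, 11 amino acid genes, 6 ATF4-programme and 3 other synthetases, 12 ER genes and 3 relatives. With no filter they were 7 amino acid genes, with 1 upstream gene, 1 other ATF4 or CHOP target and 1 ER gene higher. DESeq2 gave 6 amino acid genes lower with 1 higher, and 1 ER gene higher. Limma-voom gave 1 amino acid gene lower. The replicate block gave 1 upstream gene lower, 7 amino acid genes lower with 1 higher, 1 other ATF4 or CHOP target higher and 2 ER genes higher. Without a library or pair, lower counts were 1 to 5 other ATF4 and CHOP targets, 0 to 4 amino acid genes and 0 to 1 relatives, and 0 to 1 ER genes were higher. All other list counts were 0 in those fits.

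Among the 42 named genes, 655 alternative values kept direction and call, 41 reversed, 37 lost and 23 gained a call. Marker scaling, which shifted the all-gene median by -0.75, reversed Ddit3 (-0.50), Xbp1 (-0.47), Creld2 (-0.47), Ern1 (-0.15), Slc7a5 (-0.12), Sars (-0.46) and Mars1 (-0.49). It also reversed Qars (-0.37), Rars (-0.57), Hars (-0.58), Dars (-0.67), Dnajb11 (-0.20), Sec61b (-0.36), Derl2 (-0.37), Sesn1 (-0.53), Herpud2 (-0.46) and Creld1 (-0.29). Library size alone, with a shift of -0.20, reversed Rars (-0.019), Hars (-0.038), Dars (-0.13) and Sesn1 (-0.028). Sesn1 was also at -0.056 in limma-voom and -0.076 with the replicate block. Without a library or pair Atf4 ran from -0.19 to 0.022, Asns from -0.49 to 0.040, Herpud1 from -0.38 to 0.13, Dars from -0.19 to 0.34, Sesn1 from -0.68 to 0.51, Sesn3 from -0.43 to 0.0068, Trib2 from -0.47 to 0.083 and Ppp1r15b from -0.18 to 0.18. The cause of the changes in direction or call was not tested.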
